A study of Mus musculus with 4 samples.

Results

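The growth hormone STAT5 axis was followed in mouse liver through 10 genes: the receptor Ghr, the kinase Jak2, the transcription factors Stat5a and Stat5b, the feedback inhibitors Cish, Socs2 and Socs3, the repressor Bcl6, and the secreted outputs Igf1 and Igfals. They were taken by name from the 25572 loci of the authors' deposited table. Each matched 1 locus that holds no other gene, and all 10 were among the 13320 loci that the authors tested. The comparison asks which liver transcripts differ when Ern1 is deleted in liver; Ern1 encodes IRE1α, a sensor of endoplasmic reticulum stress. It sets 2 libraries labelled Ern1-LKO (liver-specific Ern1 knockout) against 2 libraries labelled WT, the wild-type controls of that knockout. Both groups were C57BL/6J mice at 8 weeks of age, and the labels name no treatment. The sources used here name neither the Cre driver nor the floxed allele nor the sex of the mice.

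Expression is the authors' FPKM, fragments scaled by transcript length and sequencing yield, with 1 value per genotype. The spread between the 2 mice of a genotype is therefore not shown, and either mouse of a pair could carry a difference. Unless another rule is named, calls below rest on the authors' q, their p adjusted over all tested loci, being under 0.05. The error given is the standard error (SE) of the log2 fold change implied by the authors' test statistic, and 95% intervals are built from it. Ern1 itself stood at 30.2 FPKM in LKO-labelled libraries and 21.4 FPKM in WT libraries (q = 0.172 in the authors' deposited table). That value does not show the deletion, and the table has no values by exon, so the genotype labels could not be checked on it. Hepatocyte markers were abundant in both genotypes, the 11 tested of 12 summing to 32301 FPKM in LKO-labelled and 33052 FPKM in WT libraries. The locus of Alb, listed at 0 because its fragments were too many to estimate, adds nothing to these sums.

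Growth hormone reaches the liver in pulses and binds GHR, whose bound kinase JAK2 phosphorylates STAT5A and STAT5B. Phosphorylated STAT5 pairs up, enters the nucleus and binds DNA at palindromic sites; in liver it drives Igf1 and Igfals as well as Cish and Socs2, whose proteins act back on the receptor complex. BCL6, a repressor, binds many of the same sites in mouse liver, and its gene is turned down by growth hormone. STAT5B is the more abundant and the more important STAT5 in liver, and the pattern of growth hormone pulses sets which liver genes differ between male and female mice.

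The STAT5 core motif TTCNNNGAA reads the same on both strands, and it was searched in RefSeq promoter windows (GRCm38.p6, 250 bases before to 50 after a start site). Windows were held for 9 of the 10 genes, all but Socs2, 15 windows in all. The motif was found in 6 windows of 4 genes (Cish, Socs3, Bcl6 and Igfals). Of all 32851 windows of that length, 8.3% held at least 1 match, 0.457% at least 2 and 0.0335% at least 3. Stretches that hold matches are shown for called genes. Stat5a, also called, had no match, and Socs2, also called, had no window to search. The stretches are 30 bases around the Cish matches, and the 250 bases before the start site of the Socs3 and both Bcl6 windows. Capitals mark the motif, and each runs 5′ to 3′ on the strand of the gene.
Cish, chr9:107296654-107296683, plus strand: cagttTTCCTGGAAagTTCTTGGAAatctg
Socs3, chr11:117969367-117969616, minus strand: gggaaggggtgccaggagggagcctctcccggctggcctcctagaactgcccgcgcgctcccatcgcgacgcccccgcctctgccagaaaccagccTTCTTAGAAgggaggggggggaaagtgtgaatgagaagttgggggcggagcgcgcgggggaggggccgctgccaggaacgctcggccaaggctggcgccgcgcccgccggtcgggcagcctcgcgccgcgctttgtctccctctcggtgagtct
Bcl6, chr16:23981284-23981533, minus strand: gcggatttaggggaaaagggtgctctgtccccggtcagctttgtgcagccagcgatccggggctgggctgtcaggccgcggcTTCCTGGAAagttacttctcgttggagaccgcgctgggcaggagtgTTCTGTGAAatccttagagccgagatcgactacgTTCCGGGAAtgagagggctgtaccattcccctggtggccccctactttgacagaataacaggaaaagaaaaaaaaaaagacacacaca
Bcl6, chr16:23988853-23989102, minus strand: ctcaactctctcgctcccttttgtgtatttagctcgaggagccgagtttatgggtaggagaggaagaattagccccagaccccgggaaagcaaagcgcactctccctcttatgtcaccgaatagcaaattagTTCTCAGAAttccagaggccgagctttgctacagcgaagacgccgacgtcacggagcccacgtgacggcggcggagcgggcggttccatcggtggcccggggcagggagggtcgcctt
Cish carries 2 matches, at positions 1 and 12 counted from its RefSeq start site, where GENCODE M21 annotates a 5′ UTR of a transcript that begins farther upstream. They lie just upstream of the Cish locus of the authors' table, which spans 107296689 to 107301988. The Socs3 match begins at position -154, and part of its window holds an exon of a noncoding Socs3 transcript. The first Bcl6 window lies in an intron of the gene and holds 3 matches, at -168, -122 and -88; the second, upstream of the outermost start site, holds 1 at -118. Igfals, which was not called, has a match in 2 of its 3 windows, TTCTCAGAA at -236 and TTCCTAGAA at -58. The windows of Ghr, Jak2, Stat5a, Stat5b and Igf1 hold none of these letters. A match describes the letters only and shows no binding.

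Within the axis, the feedback genes, the repressor and Stat5a were called, while the receptor, the kinase, Stat5b and the IGF outputs were not. Of the 10 genes, Cish, Socs2 and Socs3 rose and Stat5a and Bcl6 fell, so 5 were called, against 2.74% of all tested loci (1.58% higher and 1.16% lower). The same 5 had an unadjusted p under 0.05, against 10.3% of all tested loci. The 10 genes were chosen with earlier results of these data known, so nothing is read from these differences in share. Across the 10 genes the log2 fold change had its median at 0.05, with 6 above and 4 below WT, beside a median of -0.02 and an SD of 0.37 over expressed loci (FPKM of at least 1 in either genotype). Their implied SEs ran between 0.16 and 0.25. Since tissue RNA was sequenced in bulk, fewer cells of a type and less RNA per cell cannot be told apart.

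**Figure D1:**
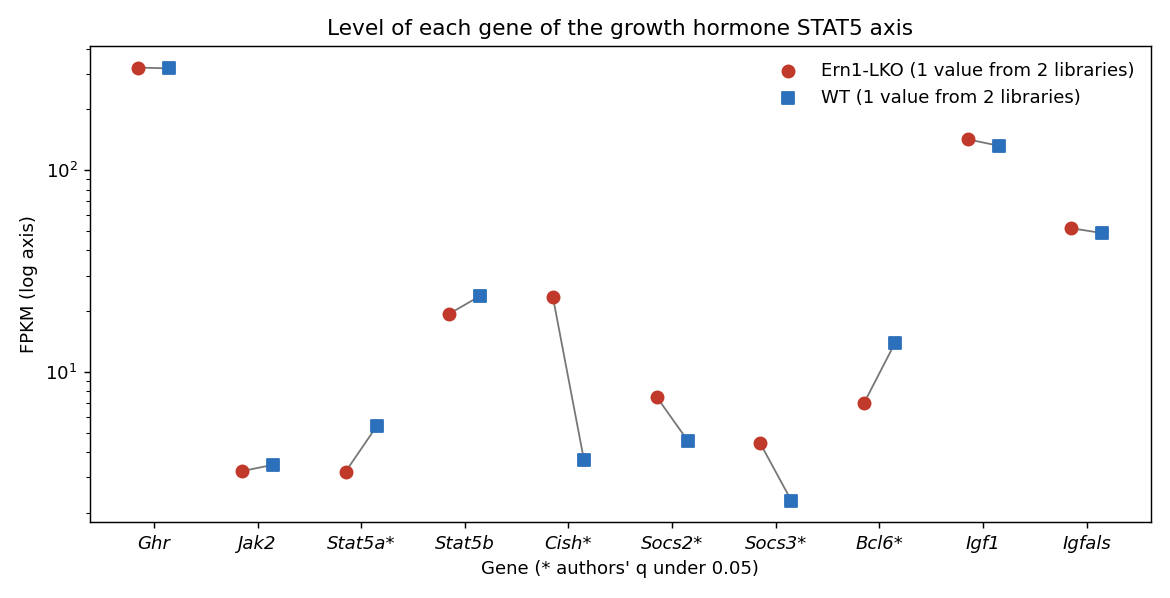
FPKM of each of the 10 genes on a log axis, with LKO-labelled libraries as circles and WT libraries as squares, 1 value per genotype from 2 libraries each. Cish shows the steepest line, at 23.4 FPKM in LKO-labelled and 3.64 FPKM in WT libraries, while the points of Ghr, Igf1 and Igfals are nearly level.

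Ghr, which encodes the growth hormone receptor, was the most abundant of the 10 genes, at 322 FPKM in LKO-labelled libraries and 319 FPKM in WT libraries. Its level lay above that of 97.6% of tested loci in both genotypes. Its log2 fold change is 0.01 in the authors' deposited table (implied SE 0.20, q = 0.999), with a 95% interval of -0.38 to 0.41, or 0.768 to 1.33 as a ratio. Jak2, the receptor's kinase, stood at 3.22 FPKM in LKO-labelled libraries and 3.46 FPKM in WT libraries. Its log2 fold change was -0.11 (implied SE 0.18, q = 0.999), and the interval of its ratio ran from 0.725 to 1.19. The Ghr level per length was 100 times that of Jak2 in LKO-labelled and 92.2 times in WT libraries.

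Stat5a fell to 3.20 FPKM in LKO-labelled libraries, against 5.38 FPKM in WT libraries, a ratio of 0.595. In the authors' deposited table its log2 fold change is -0.75 (implied SE 0.19, interval -1.12 to -0.38), with p = 5e-05 and q = 0.00343. Both are the smallest that the table holds, and 194 tested loci share them. Stat5b stood at 19.4 FPKM in LKO-labelled libraries and 23.8 FPKM in WT libraries. It was not called, with q = 0.579 and a log2 fold change of -0.30 in the authors' deposited table (implied SE 0.16, interval -0.62 to 0.03). Both paralogs thus lay below WT, and whether they changed by different amounts was not tested. Together they summed to 22.6 FPKM in LKO-labelled and 29.2 FPKM in WT libraries, of which Stat5a made up 14.2% and 18.4% of the sum in LKO-labelled and WT libraries.

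The Stat5 genes lie side by side on chromosome 11, Stat5a at 100859351 to 100885222 and Stat5b at 100780731 to 100850585, with 8765 bases between them. Of the distinct 50-base stretches of GENCODE M21 Stat5a transcripts, 8.21% also occur in Stat5b, and 11.0% of those of Stat5b occur in Stat5a. Reads from these stretches could be split between the genes, so their separate values are less certain. The last 125 bases of the Stat5a locus overlap Stat3 on the opposite strand, which stood at 26.4 FPKM in LKO-labelled and 24.2 FPKM in WT libraries and was not called (q = 0.999). The sources used here do not say whether the libraries keep strand.

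Cish, which encodes the SH2 protein CIS that binds activated cytokine receptors and restrains STAT5, rose to 23.4 FPKM in LKO-labelled libraries, against 3.64 FPKM in WT libraries. The ratio was 6.43, with an interval of 4.85 to 8.52. On the log2 scale this is a change of 2.69 (implied SE 0.21), with q = 0.00343 in the authors' deposited table. Its test statistic of 8.98 was the highest of the 13304 tested loci with a finite one, although 17 of 10926 expressed loci had a larger log2 fold change. In level Cish lay above 80.9% of tested loci in LKO-labelled libraries and above 42.9% in WT libraries. Among the 10 genes it ranked 4 of 10 in LKO-labelled and 8 of 10 in WT libraries. Annotated RNAs on the opposite strand overlap the Cish locus at 2 places, over 504 and 1459 bases, so reads from them cannot be told apart from Cish without strand.

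Socs2 and Socs3 rose by less. Socs2, whose protein marks GHR for breakdown and whose loss makes mice overgrow, rose to 7.52 FPKM in LKO-labelled libraries, against 4.56 FPKM in WT libraries. Its ratio was 1.65 (interval 1.26 to 2.15) and its log2 fold change 0.72 (implied SE 0.19). In the authors' deposited table its q is 0.0308, so it was not called at q under 0.01. Socs3, which binds JAK kinases and the IL-6 receptor chain and is also induced by inflammatory cytokines, rose to 4.42 FPKM in LKO-labelled libraries, against 2.30 FPKM in WT libraries. Its ratio was 1.92 (interval 1.44 to 2.55) and its log2 fold change 0.94 (implied SE 0.21, q = 0.00343). The intervals of Socs2 and Socs3 overlap each other, and neither reaches that of Cish. Of the transcripts of Socs2, 4.53% of distinct 50-base stretches are shared with another annotated gene, and of Socs3 none.

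Cish made up more of the summed level of the feedback genes in LKO-labelled libraries. Summed FPKM of Cish, Socs2 and Socs3 was 35.3 in LKO-labelled libraries and 10.5 in WT libraries, and Cish made up 66.2% of that sum in LKO-labelled and 34.6% in WT libraries. The level of Cish per length was 3.11 times that of Socs2 in LKO-labelled and 0.797 times in WT libraries. Against Stat5b it was 1.21 times in LKO-labelled and 0.153 times in WT libraries. These ratios combine single pooled values and carry no error of their own.

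Bcl6, the repressor, fell to 6.98 FPKM in LKO-labelled libraries, against 13.9 FPKM in WT libraries, a ratio of 0.503 with an interval of 0.396 to 0.638. In the authors' deposited table its log2 fold change is -0.99 (implied SE 0.18, p = 5e-05, q = 0.00343). Only 23 tested loci with a finite test statistic had a more negative one, and 73 expressed loci had a lower log2 fold change. The locus spans 23965049 to 23988612 on chromosome 16. Gm37419, annotated as protein-coding on the opposite strand, overlaps it over 114 bases and has no value of its own here. The level of Cish was 3.35 times that of Bcl6 in LKO-labelled libraries and 0.262 times in WT libraries, so their order differed between the genotypes.

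**Figure D2:**
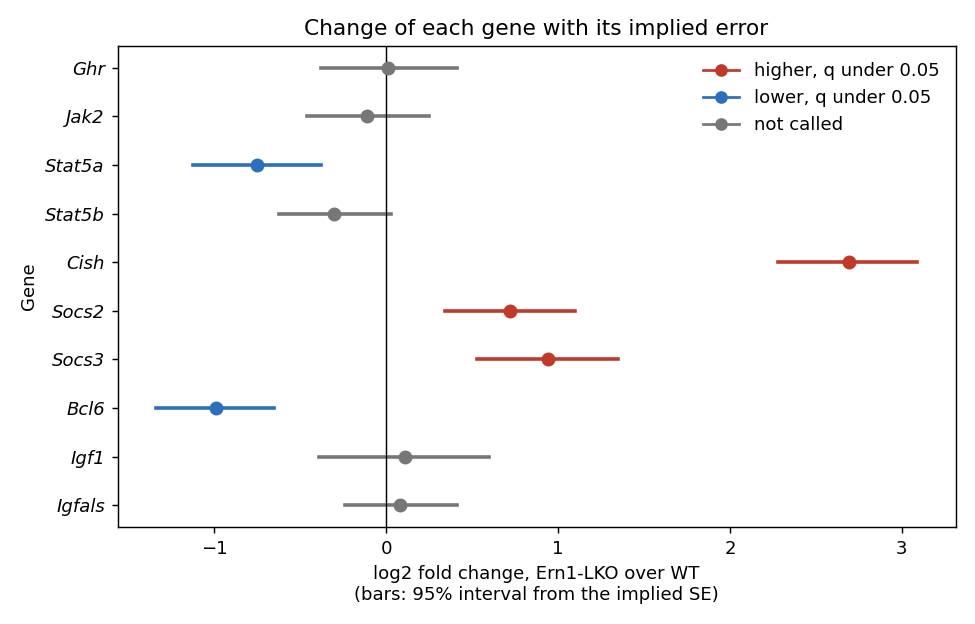
Log2 fold change of LKO-labelled over WT libraries for each gene, with bars for the 95% interval from the implied SE. The intervals of Cish, Socs2 and Socs3 lie above 0 and those of Stat5a and Bcl6 below 0, while those of Ghr, Jak2, Stat5b, Igf1 and Igfals cross 0.

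Igf1, the growth factor that liver releases into blood under growth hormone, stood at 142 FPKM in LKO-labelled libraries and 132 FPKM in WT libraries. Its log2 fold change was 0.11 (implied SE 0.25, q = 0.999), and the interval of the ratio ran from 0.763 to 1.52, the widest of the 10 genes on the log2 scale. Igfals encodes the acid-labile subunit that holds IGF1 in its circulating complex, and it stood at 51.5 FPKM in LKO-labelled libraries and 48.7 FPKM in WT libraries. Its log2 fold change was 0.08 (implied SE 0.17, q = 0.999), with a ratio between 0.845 and 1.33. Igf1 was 2.76 times Igfals per length in LKO-labelled and 2.72 times in WT libraries. An antisense RNA, Igf1os, overlaps the start of the Igf1 locus over 4326 bases. A change of Igf1 as large as that of Cish (interval from a ratio of 4.85) lies outside the interval of Igf1.

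By level per length, Ghr, Igf1 and Igfals held the first 3 places in both genotypes. In LKO-labelled libraries Cish and Stat5b came next at 23.4 and 19.4 FPKM, then Socs2 at 7.52, Bcl6 at 6.98, Socs3 at 4.42, Jak2 at 3.22 and Stat5a at 3.20 FPKM. In WT libraries Stat5b came next at 23.8 FPKM, then Bcl6 at 13.9, Stat5a at 5.38, Socs2 at 4.56, Cish at 3.64, Jak2 at 3.46 and Socs3 at 2.30 FPKM. Neighbours in this order, such as Jak2 and Stat5a in LKO-labelled libraries, cannot be ranked firmly, since the table gives no spread for a level. Of the 5 called genes 4 lay under 10 FPKM in WT libraries. There Bcl6, Stat5a, Socs2, Cish and Socs3 lay above 72.3%, 51.4%, 47.6%, 42.9% and 34.1% of tested loci. Levels under 10 FPKM were thus common among tested loci.

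**Figure D3:**
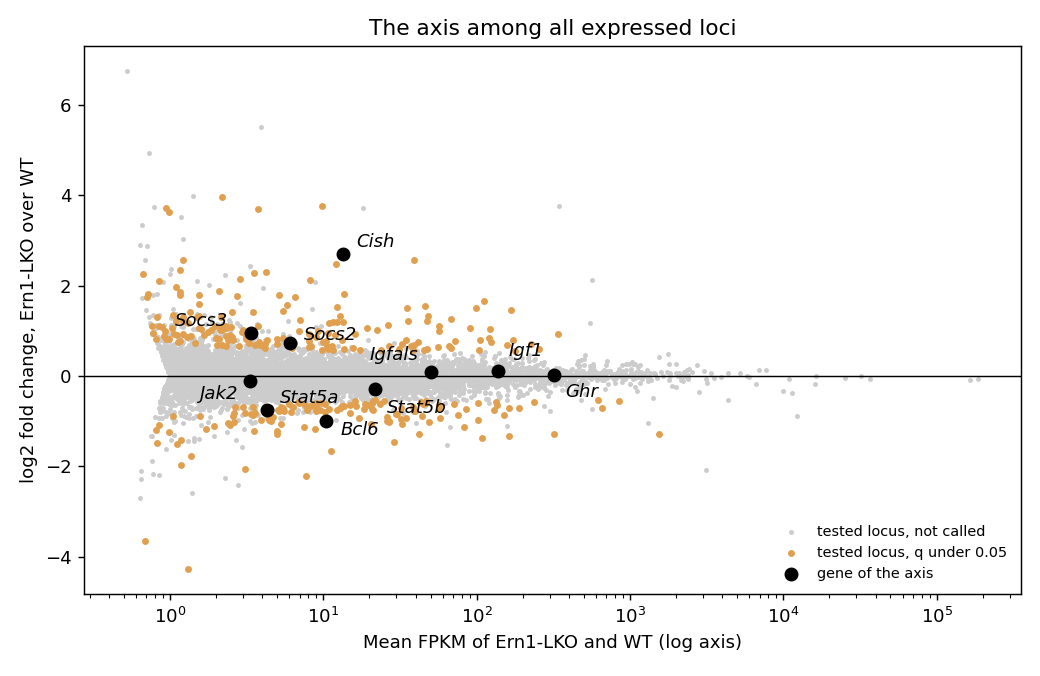
Log2 fold change of LKO-labelled over WT libraries against mean FPKM (log axis) for expressed loci, with called loci in orange, other tested loci in grey and the 10 genes in black. Cish lies at 2.69 and Bcl6 at -0.99, while Ghr, Igf1 and Igfals lie close to the line of no change.

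Other genes of the receptor pathway showed no call. None of 30 tested loci of growth hormone receptor signalling was called by the authors' Cuffdiff test (2 at an unadjusted p under 0.05), with 15 above and 15 below WT and a median log2 fold change of -0.0046. The best expressed of these loci were Stat3, given above, and the combined locus of Pygo2 and Shc1. The combined locus stood at 24.3 FPKM in LKO-labelled and 29.2 FPKM in WT libraries. Prlr, which encodes the receptor of the related hormone prolactin, had a ratio of 1.04 (q = 0.999). Of 9 other tested genes of the SOCS family and the E3 ligase that SOCS proteins join, none was called. None of them had an unadjusted p under 0.05. Beside the same shares, this too says little. Socs7, Socs4, Socs6, Socs5 and Socs1 stood at 5.05, 4.33, 3.93, 1.25 and 0.663 FPKM in LKO-labelled libraries, against 4.81, 4.51, 3.97, 1.43 and 0.773 FPKM in WT libraries. The elongin genes Tceb2 and Tceb1, subunits of that ligase, were at 266 and 42.0 FPKM in LKO-labelled and 258 and 41.3 FPKM in WT libraries.

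The IGF binding protein genes were not called either. None of 11 tested genes of the IGF system was called by the same test, and 3 had an unadjusted p under 0.05. Over all tested loci the shares were 2.74% and 10.3%, so no call among 11 genes says little. The median log2 fold change of the 11 was 0.22, and 10 of them lay above WT. Igfbp4 and Igfbp2, the best expressed, stood at 761 and 470 FPKM in LKO-labelled libraries, against 718 and 535 FPKM in WT libraries. Igfbp1, whose product binds IGF1 and is raised by fasting, stood at 165 FPKM in LKO-labelled and 117 FPKM in WT libraries (q = 0.0879). Igfbp3, which forms the circulating complex with IGF1 and the Igfals product, stood at 7.73 FPKM in LKO-labelled and 5.98 FPKM in WT libraries (q = 0.503). Igf1r, the receptor of IGF1, was low, at 0.333 FPKM in LKO-labelled and 0.312 FPKM in WT libraries.

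Of 13 tested loci that are known STAT5 targets in liver or blood cells, 4 rose and none fell, against 1.58% and 1.16% of all tested loci, and 6 had an unadjusted p under 0.05, against 10.3%. Their median log2 fold change was 0.31. This gene list and the others around the axis were chosen with earlier results of these data known, so nothing is read from such differences. Myc, a growth regulator, rose to 7.03 FPKM in LKO-labelled libraries, against 1.44 FPKM in WT libraries. Onecut1, which encodes the growth hormone-induced liver factor HNF6, rose to 21.4 FPKM in LKO-labelled libraries, against 6.06 FPKM in WT libraries. Gadd45g rose to 122 FPKM in LKO-labelled libraries, against 58.1 FPKM in WT libraries, and Nnmt to 91.2 FPKM, against 53.7 FPKM in WT libraries. Each has q = 0.00343 in the authors' deposited table, and the log2 fold changes are 2.29, 1.82, 1.07 and 0.76 (implied SE 0.23, 0.34, 0.17 and 0.17). The kinase genes Pim1 and Pim3 stood at 5.58 and 70.8 FPKM in LKO-labelled and 4.69 and 56.0 FPKM in WT libraries, and Ccnd1 at 6.44 FPKM in LKO-labelled and 10.5 FPKM in WT libraries; none of these was called. Myc, Onecut1 and Gadd45g also respond to signals other than STAT5.

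Of 13 tested loci of liver transcription factors that work with growth hormone, Onecut1 alone was called, where 2.74% of all tested loci were. Hnf4a stood at 181 FPKM in LKO-labelled and 191 FPKM in WT libraries, and Cebpb at 216 FPKM in LKO-labelled and 177 FPKM in WT libraries. The pioneer factor genes Foxa1 and Foxa2 stood at 9.42 and 11.4 FPKM in LKO-labelled and 6.21 and 8.04 FPKM in WT libraries (q = 0.0793 and 0.172). The list had 10 of 13 loci above WT and a median log2 fold change of 0.26. An unadjusted p under 0.05 was held by 4 of the 13, against 10.3% of all tested loci.

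Sex-biased liver genes are the downstream readout of growth hormone pulses. Calls went in both directions among male-biased loci and only upward among female-biased genes. Of 25 tested male-biased loci 3 rose and 3 fell, and 8 had an unadjusted p under 0.05. Over all tested loci 1.58% rose, 1.16% fell and 10.3% had an unadjusted p under 0.05. The male-biased loci split into 11 above and 14 below WT, with a median of -0.02 on the log2 scale. Susd4 (ratio 2.26), Scara5 (2.15) and Cyp4a12b (1.62) rose, and Cyp2u1 (0.502), Ugt2b38 (0.627) and Elovl3 (0.640) fell. Of the well-known male genes, Cyp2d9, Hsd3b5 and Cyp7b1 were not called, while Elovl3 fell as given above. The 3 uncalled genes stood at 1130, 210 and 213 FPKM in LKO-labelled libraries, against 1062, 228 and 233 FPKM in WT libraries. Mup20, a major urinary protein gene, stood at 8693 FPKM in LKO-labelled and 15997 FPKM in WT libraries, with q = 0.0973. Mup3 and Mup21 also lay below WT (ratios 0.766 and 0.768) and were not called. Mup1, the combined loci that hold Mup2, and Serpina1e had too many fragments and were not tested. Of 12 tested female-biased genes 4 were called higher and none lower, 9 lay above WT and 8 had an unadjusted p under 0.05. Their median log2 fold change was 0.72. The 4 called were Ntrk2 (1.54 FPKM in LKO-labelled and 0.664 in WT libraries), Cyp2c69 (3.41 and 1.60), Fmo2 (2.92 and 1.44) and Cyp2c40 (10.6 and 5.54). The other 3 tested genes lay below WT, uncalled. Among them was Hamp2, the most abundant of the list, at 155 FPKM in LKO-labelled and 216 FPKM in WT libraries (q = 0.165). The list summed to 193 FPKM in LKO-labelled and 244 FPKM in WT libraries. Several strongly female genes were near or at 0 in both genotypes, among them Cyp2b9, at 0.108 FPKM in LKO-labelled and 0.0305 FPKM in WT libraries. Mup, Cyp2c and Cyp4a genes have close paralogs, so their values are uncertain. Both sex-biased lists were chosen with earlier results of these data known, so nothing is read from their counts beside those shares.

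**Figure D4:**
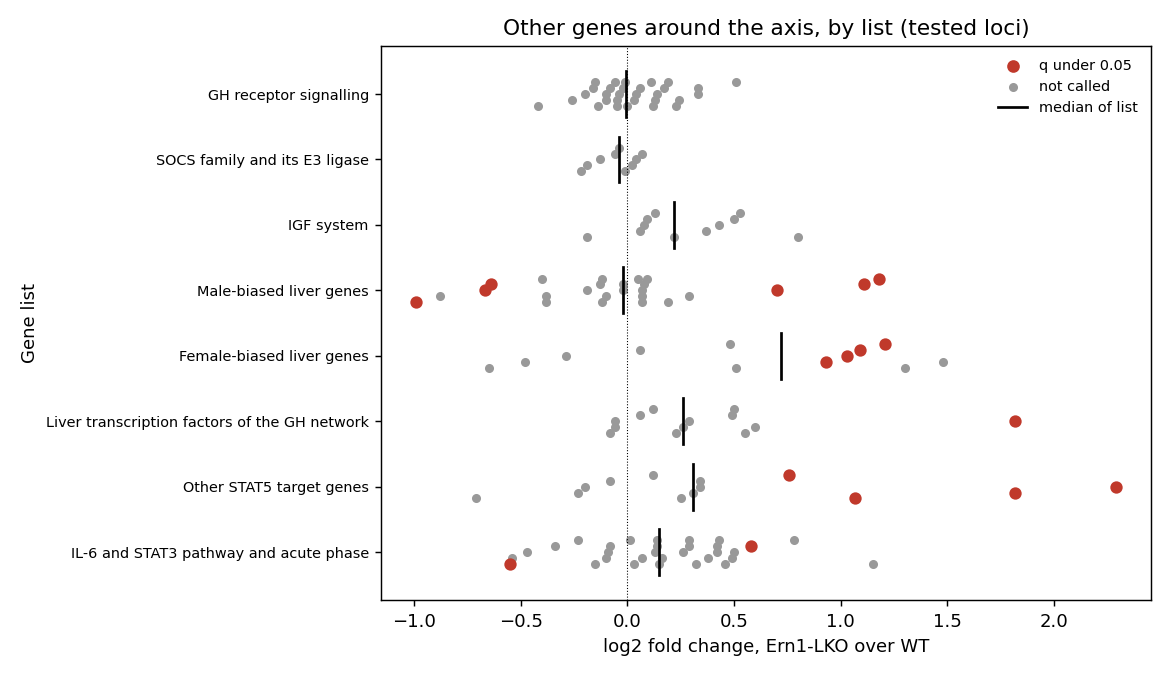
Log2 fold change of LKO-labelled over WT libraries for the tested loci of 8 gene lists around the axis, with called loci in red, other loci in grey and a bar at each list's median. Receptor signalling and SOCS family loci lie close to 0 with none called, and the called loci of the STAT5 target list all lie to the right.

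Socs3 also answers to IL-6 through STAT3, so that pathway and its acute phase targets were counted. Of 31 tested genes 1 rose and 1 fell, 22 lay above WT, and the median log2 fold change was 0.15. With 1.58% of all tested loci higher and 1.16% lower, 1 call in each direction says little. An unadjusted p under 0.05 was held by 10 of the 31, against 10.3% of all tested loci. Steap4 rose to 56.6 FPKM in LKO-labelled libraries, against 37.7 FPKM in WT libraries, and Orm1 fell to 684 FPKM, against 1002 FPKM in WT libraries (q = 0.0349 and 0.047). The receptor gene Il6ra stood at 17.2 FPKM in LKO-labelled and 12.5 FPKM in WT libraries (q = 0.161). The classic acute phase gene Saa1 stood at 142 FPKM in LKO-labelled and 166 FPKM in WT libraries, and Cebpd at 5.27 FPKM in LKO-labelled and 3.06 FPKM in WT libraries (q = 0.868 and 0.0523). Over all 8 lists, 138 distinct loci were tested, of which 12 rose and 4 fell, where 1.58% of all tested loci rose and 1.16% fell. The lists were chosen with earlier results of these data known, so nothing is read from that difference.

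Feedback genes and Bcl6 are also expressed in immune and mesenchymal cells, so markers of other cell types were summed. Kupffer cell markers summed to 451 FPKM in LKO-labelled and 419 FPKM in WT libraries, with 11 of 12 above WT and none called. The locus below WT was the combined locus of Cd68 and Eif4a1, a widely expressed gene, and without it the sums were 300.5 FPKM in LKO-labelled and 255.5 FPKM in WT libraries. Stellate cell markers summed to 109 FPKM in LKO-labelled and 80.1 FPKM in WT libraries, with 10 of 10 above WT. Of them 3 were called, the collagens Col1a1, Col1a2 and Col3a1, where 2.74% of all tested loci were called. Endothelial markers summed to 101 and 92.3 FPKM, lymphocyte markers to 6.24 and 4.93 FPKM, and neutrophil markers to 13.7 and 23.6 FPKM in LKO-labelled and WT libraries. Bile duct markers summed to 34.9 FPKM in LKO-labelled and 40.7 FPKM in WT libraries, most of it Spp1 (30.3 and 37.2 FPKM), while the other 4 of 5 lay above WT. Of these lists, Vwf (endothelial) and Cd4 (lymphocyte) were called, both higher, and the neutrophil gene Camp was at 0 in both genotypes. Adipocyte markers summed to 39.5 FPKM in LKO-labelled and 19.5 FPKM in WT libraries, and all 6 tested lay above WT. Fabp4 made up most of both sums (24.9 FPKM in LKO-labelled and 17.5 FPKM in WT libraries). The more adipocyte-restricted genes were near 0 in WT: Adipoq stood at 1.42 FPKM in LKO-labelled and 0.0463 FPKM in WT libraries, Cfd at 7.66 and 0.168 FPKM, and Plin1 at 0.644 and 0.00673 FPKM, none of them called. Retn, at 2.06 FPKM in LKO-labelled libraries and listed at 0 in WT, was called. Pancreatic acinar markers summed to 60.3 FPKM in LKO-labelled and 54.7 FPKM in WT libraries, most of it Cela1 (58.5 and 46.4 FPKM). Of the 12 markers 10 were listed at 0 in LKO-labelled and 1 in WT libraries. The highest WT value of those at 0 in LKO-labelled libraries was 1.41 FPKM (Ctrb1). Of 8 tested markers 4 were called lower, where 1.16% of all tested loci were, and 1 lay above WT. The part of these cells in the changes of Cish, Socs2, Socs3, Stat5a and Bcl6 was not tested.

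The genes nearest to each called gene in level were found among 11139 tested single-gene loci by distance over the log2 FPKM of both genotypes, a likeness over 2 values only. Cxcl1, a neutrophil chemokine, lay nearest to Cish, at 20.4 FPKM in LKO-labelled and 3.66 FPKM in WT libraries (distance 0.198 in log2 units), followed by Onecut1 (0.748). Slc13a3 (0.11) and Cebpe (0.116) lay nearest to Socs2, and Eif4e3 (0.0523) and Col1a2 (0.0588) to Socs3. Il1b (0.0234) and Tbx3 (0.0758) lay nearest to Stat5a, and Cyp4a32 (0.0859) and Atoh8 (0.139) to Bcl6. Il1b and Cyp4a32 were not called (q = 0.108 and 0.999), and the other 8 were. Each was picked for having nearly the levels of a called gene in both genotypes, so nothing is read from these calls.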

How the data were processed

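RNA sequencing measured liver transcripts in 2 mice labelled Ern1-LKO and 2 labelled WT. Per the labels' protocols, RNAiso was used to isolate RNA and a NEBNext Ultra kit for the libraries. Per the submitters' processing notes, the tools were TopHat2 2.0.14, Cufflinks 2.2.1, FastQC 0.11.3 and bcl2fastq, with mm10. The sources used here give neither their roles nor the annotation nor the read depth. The authors' deposited table is, per the file headers, a Cuffdiff-style comparison with 1 FPKM per genotype. It also holds the authors' deposited log2 fold change of Ern1-LKO over WT, test statistic (a signed score), p-value and q-value. The deposited log2 fold changes matched the log2 FPKM ratios to within 1.3e-05. Adjusting the deposited p-values again by Benjamini-Hochberg gave the same 365 calls.

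With no value per library, no test across mice was run here; calls are the authors' q under 0.05. The implied SE divides the size of the log2 fold change by that of the test statistic and multiplies it by ln 2. Over 10772 loci, the z it gives was 1.02 times that of the deposited p-value in the median (5th to 95th percentile 0.993 to 1.08). Loci at the smallest p, 5e-05, and loci with a p near 1 or a small z were left out of this check. The scaling is therefore unchecked for the 4 genes of the axis at the smallest p. Loci with status HIDATA (13) or FAIL (1) were not tested by the authors. Starts were raised by 1 to be 1-based.

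The 10 genes and the lists were chosen with earlier results of these data known. From each of 8 pathway lists, all called genes and otherwise the best expressed up to 2 were named; Prlr, the other SOCS genes, Il6ra, Igf1r, Igfbp1, Igfbp3 and further uncalled genes were chosen after seeing their values. The alternatives tried were a q under 0.01, a 2-fold minimum, adjustment over expressed loci, normal-approximation p-values with and without median centring, FPKM filters of 1 and 5, and pseudocounts of 0.5, 0.1 and none in place of 1. Scripts used scipy 1.17.1, matplotlib 3.10.9, pandas 2.3.3 and numpy 2.4.6 on Python 3.11.15. Simulated data were used only for the Benjamini-Hochberg step on normal-approximation p-values, with the implied SE taken as true. The authors' own calls were not tested in that way.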

Additional observations from a re-analysis of the deposited data

How the results depend on the processing

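The 3 rises and 2 falls among the 10 genes were counted again, as the same genes, with adjustment over expressed loci, with either normal approximation (centred or not) and with an FPKM filter of 1. At q under 0.01, 2 rises (without Socs2) and 2 falls were counted, and with an FPKM filter of 5, which removes Socs3, also 2 and 2. A 2-fold minimum left 1 rise, Cish, and 0 falls, since Bcl6 stood at a ratio of 0.503; this follows from the threshold itself. Of 68 alternative values for single genes, 63 kept direction and call, 5 lost the call at a stricter threshold, and none gained a call or reversed. For Cish the change on the log2(FPKM + pseudocount) scale was 2.40 with a pseudocount of 1, 2.65 with 0.1 and 2.69 with none. Over the 8 lists, the 12 rises ranged from 8 to 16 and the 4 falls from 0 (2-fold minimum) to 6, with 2 falls at q under 0.01. No paired analysis was possible because the table gives 1 value per genotype, and for that reason leaving out a replicate and the replicate block were not run. FPKM keeps no depth, so no counting interval was computed.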
